A study of Gallus gallus with 4 samples.

Results

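The genes described here make fatty acids from acetyl-CoA in the liver or control that synthesis, and they were read in the liver of coloured broiler chickens. They are FASN, ACACA, ACLY, SCD, SREBF1, THRSP, MID1IP1, ELOVL2, ELOVL5 and PGD. A probe was taken as theirs where its RefSeq accession on the array is one of these genes, which gave 25 of 43603 probes for 10 of 5382 named genes. All 25 probes passed the filter on low signal, and 24 of them were well above background on all 4 arrays. The exception was the dimmer SREBF1 probe, which missed that mark on 1 array. All 10 genes lie on autosomes in the gene table used for their names.

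Fatty acid synthesis starts in the cytosol, where ACLY splits citrate into acetyl-CoA, ACACA carboxylates acetyl-CoA to malonyl-CoA, and FASN builds palmitate from both with NADPH. SCD then puts a double bond into saturated fatty acids, and the ELOVL enzymes lengthen chains. The transcription factor SREBF1 (SREBP-1) drives these genes when insulin is high. In birds the liver, more than adipose tissue, is the main site of this pathway, and THRSP (Spot 14) is a thyroid hormone and carbohydrate responsive gene that goes with it.

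Liver was taken at 35 days of age from birds in single cages with free access to feed, and pooled RNA was labelled with Cy3 and read on 1-colour Agilent arrays. There are 2 arrays of group 1 (labelled high) and 2 of group 2 (labelled low). Each group carries the same word for feed efficiency and for residual feed intake. Since a high residual feed intake usually means a low efficiency, the labels do not settle which birds used feed better, and the groups are called by number. The design text names 4 to 5 birds of each group and a pool divided in duplicate, and no treatment differs. For group 1 nothing states that the arrays hold separate birds. The group 2 arrays differ in their sex labels and in the sex-linked signals given below, so these 2 do not read as 1 pool divided. P-values then measure only the spread between these arrays.

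Signals are given as log2 of the processed intensity minus the array's 75th percentile, so a value of 0 is as bright as that percentile. These values compare arrays for 1 probe and do not rank one gene's RNA against another's. Over all kept probes the correlation between arrays was 0.989 in group 1, 0.966 in group 2 and 0.931 to 0.946 between groups. The labels name females for both group 1 arrays and for group 2 replicate 1, and 1 male and 1 female for group 2 replicate 2. The W-linked gene HINTW, over 8 probes, had a median of 6.16, 5.98 and 5.87 on group 1 replicates 1 and 2 and group 2 replicate 2. It was at -3.85 on the array labelled group 2 replicate 1, which goes against that array's label. The 416 Z-linked probes had a median of 0.50 against the other arrays there, and of -0.19 to -0.16 on the other 3. The array labelled 1 male and 1 female carried HINTW at the level of the arrays labelled female. Both group 2 labels name a female, so -3.85 goes against the label of either group 2 array. Whether the group 2 arrays are interchanged or hold male birds was not tested, and replicate numbers are used here as labelled. By HINTW, sex was not balanced between the groups, and its part in the group differences was not tested. For the probes on which the choice of group 2 array matters, the difference is also given against each group 2 array alone. In such a comparison group 2 is 1 array and any spread would come from the group 1 pair, so it is a value with no test.

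By the brightest probe of each gene 1 of the 10 genes passed the test, beside 9.67% of all named genes. This was SCD, which was 8.17-fold higher in group 2, and none passed as higher in group 1. FASN and ELOVL5 did not pass by their brightest probes, but FASN was lower in group 1 on its 2 other probes and ELOVL5 on 1 of 3, each by more than 2-fold. SREBF1, ACACA, ACLY, THRSP, MID1IP1, ELOVL2 and PGD had no probe past the test. In a whole-tissue sample fewer cells of a type and less RNA per cell cannot be told apart.

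The count of 1 of 10 lower stands beside 3.92% of all 4872 named genes lower, and 0 of 10 higher beside 5.75% higher (limma, adjusted p under 0.05, Benjamini-Hochberg over 33868 probes). At an unadjusted p under 0.05, 3 of the 10 were lower (12.5% of all genes) and 1 was higher (19.1%). Over all 25 probes 4 were lower (3.82% of all probes) and 0 higher (7.4%), so that 4 of 25 stand beside 11.2% in either direction, with 8 lower (13.1% of all probes) and 2 higher (22.2%) at the unadjusted level. Group 1 arrays lay wholly below those of group 2 for 6 of 10 genes (27.8% of all genes) and wholly above for 2 (40.3%), or apart in either direction for 8 of 10 beside 68%. Of the 25 probes 12 lay wholly below (26.4% of all probes), 7 wholly above (40.9%) and 6 overlapped. Probes of 1 gene share the RNA and are not replicates, so the probe counts are not counts of separate genes. The difference was below 0 for 6 of 10 genes by the brightest probe, beside 41.5% of all genes. The median log2 difference, group 1 minus group 2, was -0.35 over the 10 genes and 0.14 over all genes. With arrays scaled on their medians these were -0.56 and -0.079. With the mean of a gene's kept probes they were -0.055 and 0.085, and 5 of the 10 genes lay below 0. An exact permutation test of 2 arrays against 2 cannot give a two-sided p below 0.333.

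**Figure D1:**
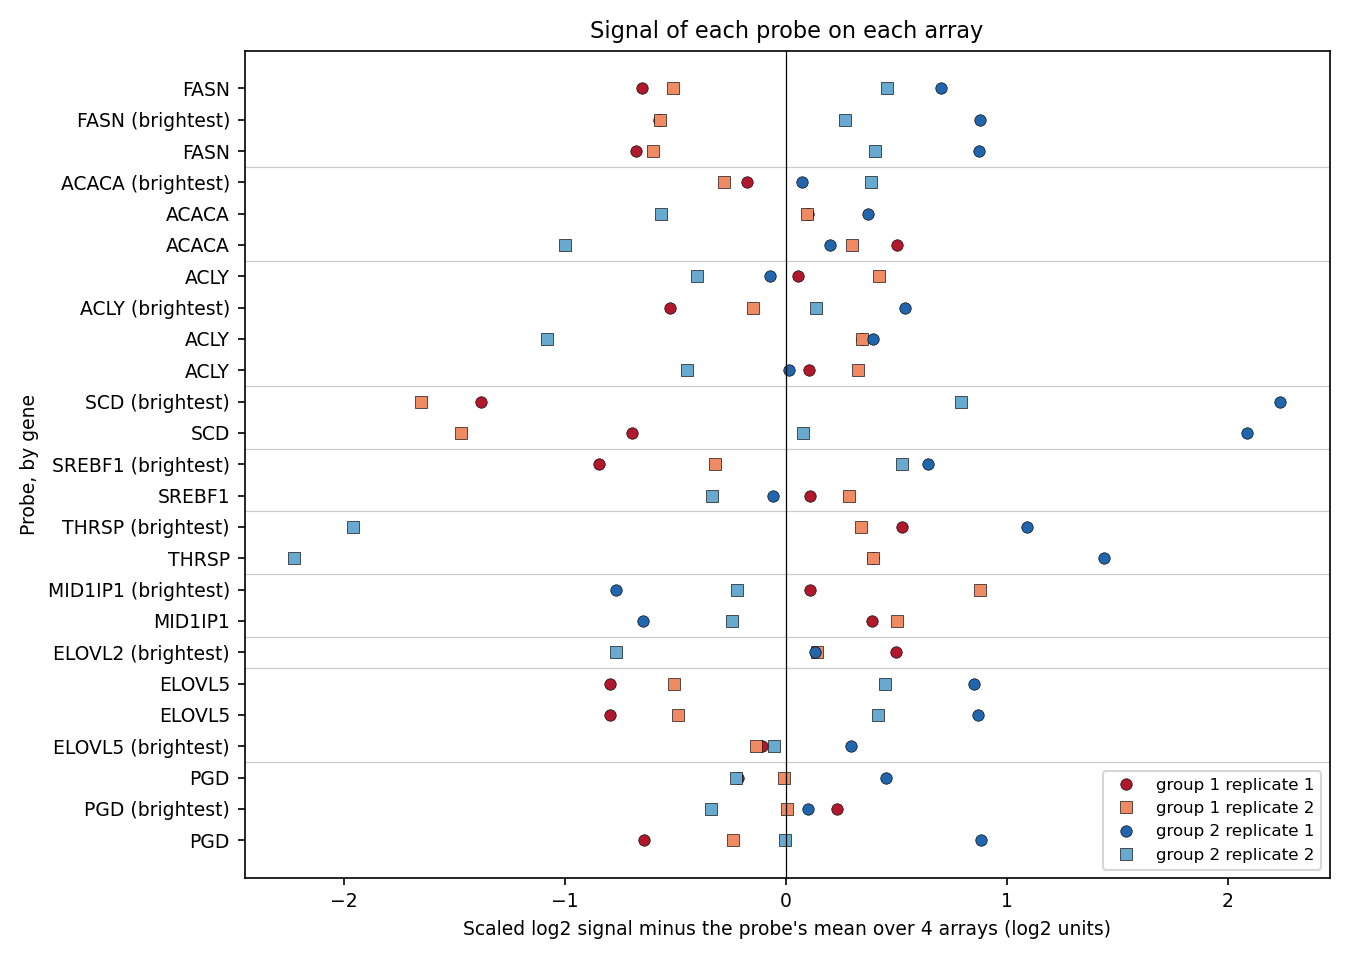
Scaled log2 signal of each of the 25 probes on each of 4 arrays, as its distance from that probe's mean over the arrays (horizontal axis, log2 units), with probes grouped by gene (vertical axis). Circles are replicate 1 and squares replicate 2, red and orange for group 1 and dark and light blue for group 2. The group 1 arrays lie left of the group 2 arrays for every FASN, SCD and ELOVL5 probe, and the group 2 arrays lie farthest apart for THRSP.

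SCD, stearoyl-CoA desaturase, makes oleate and palmitoleate from saturated fatty acids. Its brightest probe stood at -1.23 and -1.50 on the group 1 arrays and at 2.39 and 0.94 on the group 2 arrays. Both group 1 arrays were low and the groups did not overlap, although the group 2 arrays differed between themselves by 1.45. The difference was -3.03 ± 0.52 (SE, n = 2 arrays per group, adjusted p = 0.0392), with a 95% interval from -4.41 to -1.65. The dimmer SCD probe read -3.43 and -4.20 in group 1 and -0.65 and -2.66 in group 2. It differed in the same direction, by -2.16 ± 0.73, and did not pass (adjusted p = 0.117). That probe passed with the replicate number as a block, at the same difference (adjusted p = 0.0455). Against group 2 replicate 1 alone the dimmer SCD probe differed by -3.17 and against replicate 2 alone by -1.16, while the brightest differed by -3.75 and -2.31. The brightest probe did not pass when dim probes were kept in the test (adjusted p = 0.0591). Without group 1 replicate 1 or 2 it differed by -3.17 and -2.89, values with no test since group 1 is then 1 array. Averaged over both probes SCD differed by -2.60 (adjusted p = 0.0574).

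FASN, fatty acid synthase, is the multifunctional enzyme that assembles palmitate. Its brightest probe read 5.22 on both arrays of group 1, against 6.67 and 6.06 in group 2. The other probes read 4.15 and 4.22 against 5.70 and 5.23, and -0.34 and -0.20 against 1.01 and 0.77. On all 3 probes both group 1 arrays lay below both group 2 arrays, and group 2 replicate 1 was the highest array. The log2 differences were -1.14 ± 0.28, -1.28 ± 0.25 and -1.16 ± 0.21 in that order. The brightest probe did not pass (adjusted p = 0.0659), while the other probes did (adjusted p = 0.046 and 0.043). As ratios, group 2 exceeded group 1 by 2.21-fold, 2.43-fold and 2.24-fold. Averaged over its 3 probes FASN passed, with -1.20 (adjusted p = 0.0352). The brightest FASN probe differed by -1.45 from group 2 replicate 1 alone and by -0.84 from replicate 2 alone. Both called FASN probes lost their call with the replicate block (adjusted p = 0.0669 and 0.0726) and with dim probes kept (0.0726 and 0.0698). With quantile normalization 1 of them lost it (0.0597). Without 1 of the group 1 arrays these probes differed by -1.32 to -1.09, again with no test.

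SREBF1 encodes the membrane-bound factor whose released part activates FASN, SCD and other genes of the pathway. Its brighter probe read -2.84 and -2.32 in group 1, and -1.36 and -1.48 in group 2. The groups did not overlap and the group 2 arrays were close, 0.12 apart. The difference was -1.17 ± 0.26 (95% interval -1.86 to -0.48) and missed the threshold (adjusted p = 0.0577). It passed with median scaling (-1.38, adjusted p = 0.0486) and after normexp background correction with quantile normalization (-0.998, 0.0426). The dimmer probe read -5.25 and -5.08 in group 1 and -5.42 and -5.69 in group 2, near the lowest signals that count as above background (-6.06 to -5.51). Its difference of 0.39 ± 0.22 was of the opposite sign and did not pass (adjusted p = 0.267). It turned to -0.091 after quantile normalization.

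The enzymes before FASN gave no call. ACLY makes cytosolic acetyl-CoA from citrate, and its brightest probe read 3.91 and 4.29 in group 1 and 4.98 and 4.57 in group 2. The difference was -0.67 ± 0.26 (adjusted p = 0.15). The group 1 arrays were the lower ones here. The second ACLY probe read 0.45 and 0.82 in group 1 and 0.32 and -0.0098 in group 2, the third read 0.034 and 0.25 against -0.059 and -0.52, and the dimmest read -1.89 on both group 1 arrays against -1.84 and -3.31. These probes differed by 0.48, 0.43 and 0.69, opposite in sign to the brightest, with adjusted p = 0.244, 0.286 and 0.391. The dimmest differed by 1.42 from group 2 replicate 2 alone and by -0.048 from replicate 1 alone. The probes of ACLY thus disagreed in sign, and their mean differed by 0.23 (adjusted p = 0.582).

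ACACA, acetyl-CoA carboxylase alpha, is the committed step of the pathway. Its brightest probe read 3.74 and 3.64 in group 1 and 3.99 and 4.30 in group 2, without overlap. The difference was -0.46 ± 0.22 (95% interval -1.04 to 0.13, adjusted p = 0.213). A further ACACA probe read -1.12 and -1.32 in group 1 and -1.42 and -2.62 in group 2, a difference of 0.80 ± 0.44 (adjusted p = 0.262). Against group 2 replicate 1 alone this ACACA probe differed by 0.20, and its distance from replicate 2 was larger. The dimmest read -2.88 on both group 1 arrays and -2.60 and -3.54 in group 2, a difference of 0.19 ± 0.36 (adjusted p = 0.727) that turned below 0 under the 3 other scalings (-0.049 to -0.015). Averaged over its 3 probes ACACA differed by 0.18 (adjusted p = 0.643). Of 9 genes here with several probes, 4 had probes of both signs (ACACA, ACLY, SREBF1 and PGD), beside 38.3% of all 3157 named genes with several probes. Where each probe lies in its transcript was not analysed here.

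**Figure D2:**
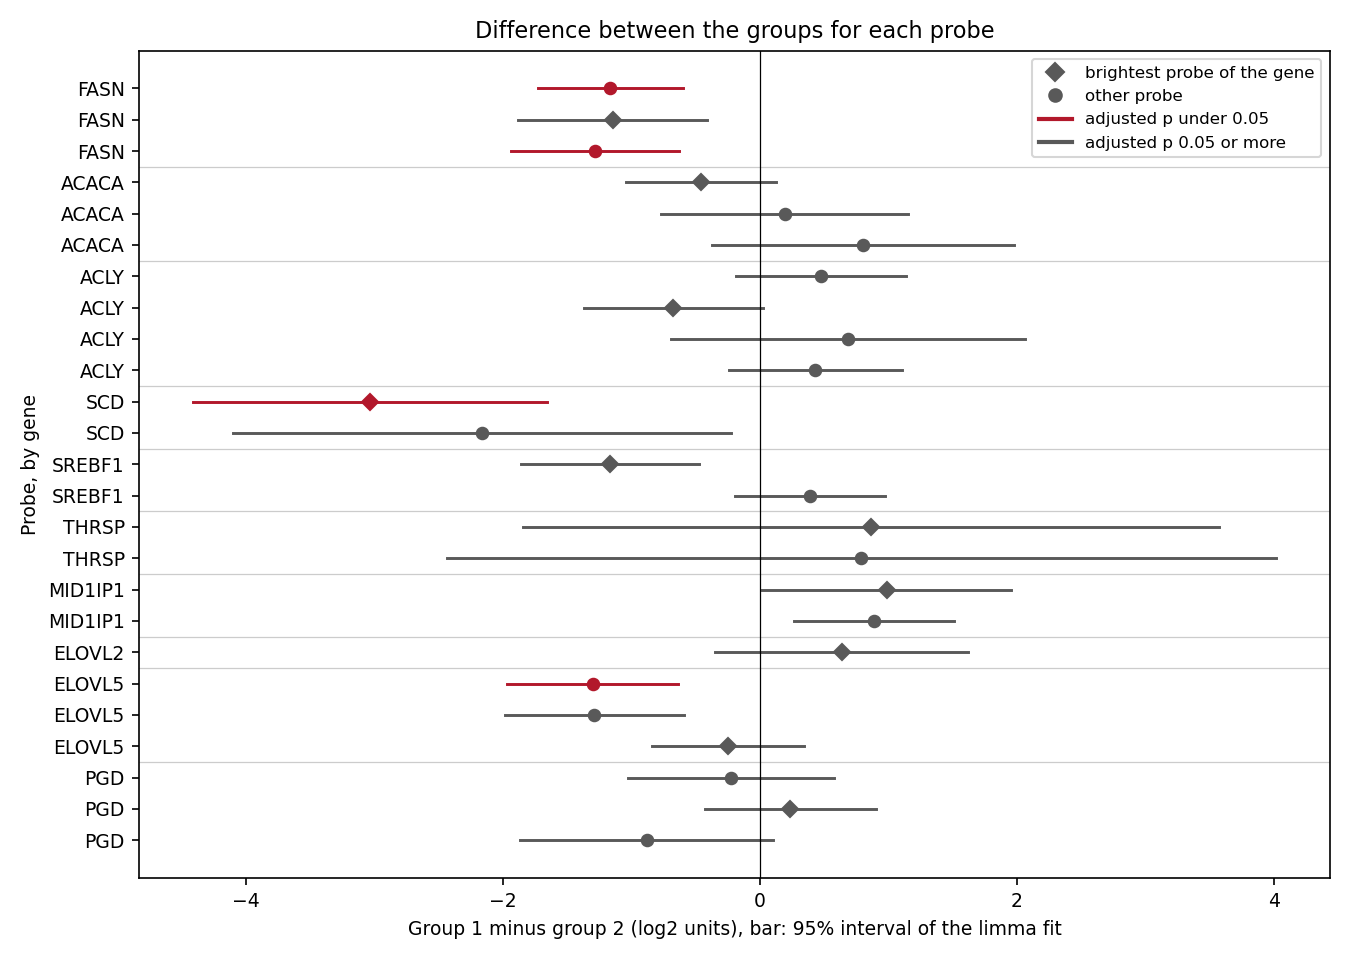
Log2 difference, group 1 minus group 2, of each of the 25 probes (horizontal axis, log2 units) with the 95% interval of the limma fit, grouped by gene (vertical axis). Diamonds mark the brightest probe of a gene, and red marks the 4 probes with an adjusted p under 0.05, of SCD (1), FASN (2) and ELOVL5 (1), all with negative differences.

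THRSP and MID1IP1 are related small proteins that bind each other. MID1IP1 (also known as Mig12) promotes the assembly of active acetyl-CoA carboxylase, as known from mammals. Of the 10 genes, THRSP was the one on which the group 2 arrays lay farthest apart. Its brightest probe read 6.71 and 6.52 in group 1, and 7.28 and 4.23 in group 2. Group 2 replicate 1 was thus the highest array and replicate 2 the lowest, with both group 1 arrays between them. Its other probe gave the same order, with 5.09 on both group 1 arrays and 6.13 and 2.47 in group 2. The group difference of the brightest THRSP probe was 0.87 ± 1.03 (95% interval -1.84 to 3.57, adjusted p = 0.574). Against group 2 replicate 2 alone the brightest THRSP probe differed by 2.39, and against replicate 1 alone by -0.66. For the other probe these were 2.62 and -1.04, so on both probes the sign of the difference was opposite for the 2 arrays.

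Within group 2, THRSP stood 3.05 higher on replicate 1 than on replicate 2. Of all 4872 named genes 6 (0.123%) differed by at least that much in that direction, THRSP among them. SCD differed by 1.45 and ELOVL2 by 0.90 in the same direction, while MID1IP1 (-0.55) and ACACA (-0.31) went the other way. In all, 8 of the 10 genes were higher on group 2 replicate 1 by their brightest probes, beside 46.6% of all genes. So were 22 of 25 probes, which share RNA within a gene, beside 48.5% of all probes. THRSP and SCD were at least 2-fold higher there (2 of 10, beside 4.5% of all genes), and none was at least 2-fold lower (4.86%). Between the group 1 arrays none of the 10 genes differed 2-fold by its brightest probe (1.77% of all genes). Nor did any of the 25 probes (987 of all 33868 tested probes), and the largest gap was 0.77. This is 1 array against 1, with no test. The HINTW and Z-linked signals also differed between these arrays, as did the summed signal of erythroid markers (7.95 and 33.0), and their part in the gap was not tested.

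MID1IP1 read -0.10 and 0.67 in group 1 and -0.97 and -0.43 in group 2 on its brighter probe. On the other probe it read -2.05 and -1.94 against -3.08 and -2.68. Both group 1 arrays lay above both group 2 arrays on each probe. The differences were 0.99 ± 0.37 (adjusted p = 0.136) and 0.89 ± 0.24 (0.0759), so neither passed, with 95% intervals of 0.022 to 1.95 and 0.27 to 1.52. The dimmer MID1IP1 probe differed by 1.09 from group 2 replicate 1 alone and by 0.69 from replicate 2 alone.

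**Figure D3:**
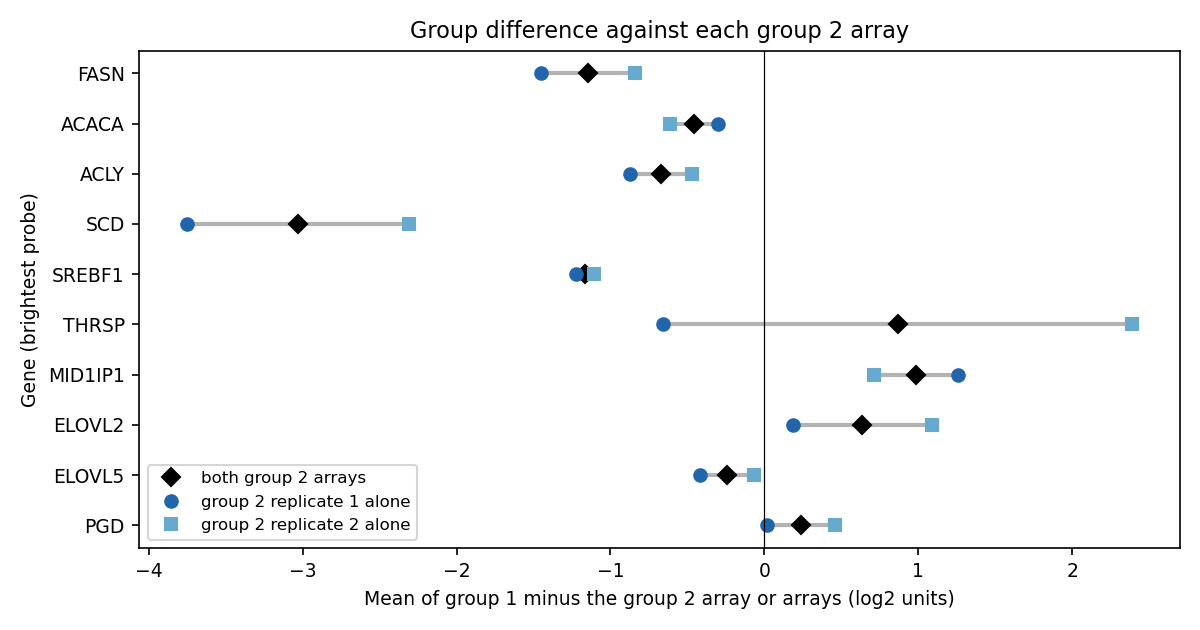
Mean of the group 1 arrays minus both group 2 arrays (black diamonds), minus group 2 replicate 1 alone (dark circles) or minus group 2 replicate 2 alone (light squares), for the brightest probe of each gene (horizontal axis, log2 units). SCD, FASN, SREBF1, ACACA, ACLY and ELOVL5 lie below 0 against either array. MID1IP1, ELOVL2 and PGD lie above 0 against either, and THRSP spans -0.66 to 2.39.

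The elongases differed from each other. ELOVL5 lengthens polyunsaturated fatty acids of medium length, and ELOVL2 acts on the longer ones on the way to docosahexaenoic acid. One ELOVL5 probe read 0.86 and 1.16 in group 1 and 2.51 and 2.11 in group 2, a difference of -1.30 ± 0.25 (adjusted p = 0.0462). A further probe read -0.40 and -0.09 against 1.27 and 0.82, a difference of -1.29 ± 0.26 that just missed (adjusted p = 0.0505). The brightest ELOVL5 probe read 5.14 and 5.12 against 5.55 and 5.20. All 3 probes lay lower in group 1 without overlap, but the brightest differed only by -0.24 ± 0.22 (adjusted p = 0.473, 95% interval -0.83 to 0.35), an interval that holds neither of the other probes' differences. Averaged over its probes ELOVL5 differed by -0.94 (adjusted p = 0.0524). The called ELOVL5 probe did not pass after quantile normalization (adjusted p = 0.0536), with the replicate block (0.0706) or with dim probes kept (0.0727). Without group 1 replicate 1 or 2 it differed by -1.15 and -1.45, with no test.

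ELOVL2 had a single probe, at 1.92 and 1.57 in group 1 and 1.56 and 0.66 in group 2. Group 1 replicate 2 and group 2 replicate 1 nearly coincided. The difference was 0.64 ± 0.37 (95% interval -0.35 to 1.62, adjusted p = 0.284). ELOVL2 differed by 1.09 from group 2 replicate 2 alone and by 0.19 from replicate 1 alone.

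PGD, 6-phosphogluconate dehydrogenase, makes NADPH in the pentose phosphate pathway. Its brightest probe read 2.69 and 2.47 in group 1 and 2.57 and 2.12 in group 2, with overlapping groups and a difference of 0.24 ± 0.25 (95% interval -0.43 to 0.90, adjusted p = 0.532). The second PGD probe read -1.10 and -0.90 against -0.44 and -1.12 (difference -0.22, adjusted p = 0.622). The dimmest read -2.79 and -2.39 against -1.27 and -2.15, without overlap (difference -0.88, adjusted p = 0.173). It differed by -1.32 from group 2 replicate 1 alone and by -0.44 from replicate 2 alone.

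Other genes of the pathway were read from 6 lists, of which 30 of 78 genes had a tested probe. By limma 0 of the 30 were called higher and 0 lower, beside 5.75% and 3.92% of all genes. At an unadjusted p under 0.05 4 were higher and 3 lower, beside 19.1% and 12.5% of all genes. Their median difference was 0.0036, beside 0.14 for all genes. The genes of these lists named next did not pass by their brightest probes and were chosen after their values were seen. Malic enzyme ME1, a main source of NADPH for fatty acid synthesis in bird liver, read 4.86 and 4.48 in group 1 and 4.80 and 4.52 in group 2. Its groups overlapped and differed by 0.0086 ± 0.25 (95% interval -0.65 to 0.66, adjusted p = 0.983). ELOVL6, the elongase that turns palmitate into stearate, differed by -0.13 ± 0.24 (adjusted p = 0.729) and on its other probe by 0.43 (0.237). The delta-6 desaturase FADS2 differed by -0.0013 ± 0.29 (adjusted p = 0.998) and on its other probe by 0.17 (0.664).

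HACD3, a dehydratase of the elongation cycle, read 3.95 and 3.73 against 5.79 and 4.48. Its difference of -1.29 ± 0.48 did not pass (adjusted p = 0.134), nor did that of its dimmer probe (-2.44, 0.0693). INSIG1, which holds SREBP in the endoplasmic reticulum, read 5.12 and 5.04 in group 1 and 4.27 and 5.05 in group 2, with a difference of 0.42 ± 0.32 (adjusted p = 0.393). That probe of INSIG1 was lowest on group 2 replicate 1, and the other 3 INSIG1 probes differed in the opposite direction (-0.37 to -0.076, adjusted p = 0.359 to 0.918). Among nuclear receptors that act on lipogenic genes, NR1H3 (liver X receptor alpha) differed by 0.25 ± 0.20 (adjusted p = 0.412) and on its other probes by 0.16 and 0.060. THRB differed by 0.52 ± 0.22 (adjusted p = 0.172) and on its dimmer probe by -0.42 (0.492).

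AMP-activated protein kinase phosphorylates and inhibits acetyl-CoA carboxylase. Its catalytic subunit PRKAA1 read -2.66 and -2.20 in group 1 and -0.98 and -1.37 in group 2, a difference of -1.25 ± 0.28 (adjusted p = 0.057). PRKAA1 is Z-linked, and the part of the Z-linked signal on group 2 replicate 1 in this difference was not tested. Its dimmer probe differed by -0.66 (adjusted p = 0.301). The other catalytic subunit, PRKAA2, read -4.30 and -4.74 in group 1 and was not well above background on either group 2 array. This probe was kept through group 1 alone, and a further PRKAA2 probe was not well above background on any array. PRKAA2 was at least 2.29-fold brighter in group 1, where that bound sets the group 1 mean against the higher of the probe's own signal and the lowest signal above background, and the fit did not pass (adjusted p = 0.0554). LPIN2, a phosphatidate phosphatase that leads fatty acids into glycerolipids, differed by -1.29 ± 0.31 on its brightest probe (adjusted p = 0.0636). Its other probe, named after its value was seen, differed by -2.16 ± 0.33 and passed (adjusted p = 0.0334).

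**Figure D4:**
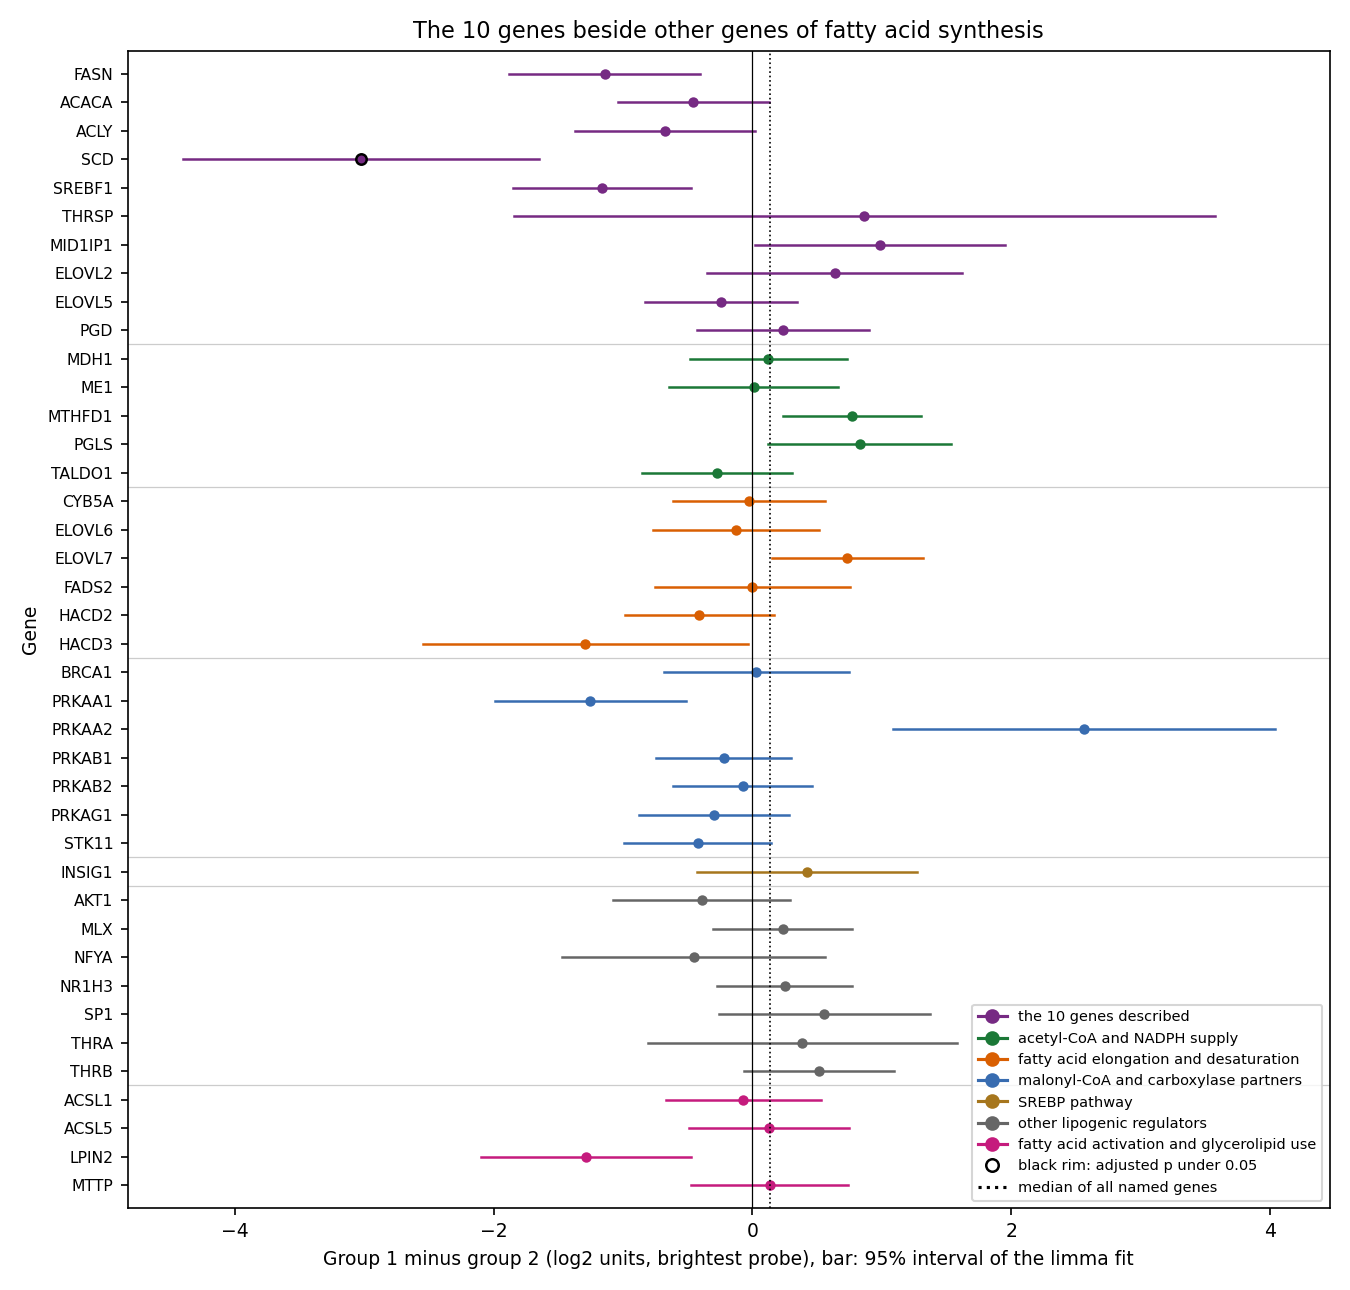
Log2 difference, group 1 minus group 2, by the brightest probe with its 95% interval (horizontal axis, log2 units) for the 10 genes and 30 other genes of fatty acid synthesis and use, coloured by list (vertical axis). SCD, with a black rim, is the only gene shown with an adjusted p under 0.05, and the dotted line is the median of all named genes (0.14). PRKAA2 is drawn at its measured values, though it was not well above background in group 2.

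The genes whose pattern over the 4 arrays came nearest to that of SCD, by the root mean square distance of centred log2 values, were CDPF1 (0.33), the surfactant protein gene SFTPA1 (0.36) and CYP7A1 (0.44), which sets the rate of bile acid formation from cholesterol. CYP7A1 read -0.70 and -0.59 in group 1 and 2.97 and 2.58 in group 2. These are likenesses over 4 arrays only.

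Marker genes of several cell types were read beside these results. Of all named genes 5.75% were called higher and 3.92% lower. Whether a marker is particular to its listed cell type was not tested. Of 10 tested hepatocyte markers 0 were called by limma, 0 had an unadjusted p under 0.05, and their median difference was 0.054, while RBP4 was not well above background on any array. The summed linear signal of that list, in units of an array's 75th percentile, was 1257 to 1766 in group 1 and 1269 to 1565 in group 2. Of 9 adipose markers 1 was higher (FABP4), and their summed signal was 52.1 to 58.6 in group 1 and 43.0 to 46.4 in group 2. Of 12 intestinal epithelial markers 8 were called higher and 11 had a difference above 0, with a median difference of 2.87. Only FABP6 lay below 0 (-0.71, adjusted p = 0.0927), beside 41.5% of all named genes. The sum over this list was 364 to 455 against 354 to 360, most of it from APOA4 (means 8.10 and 8.03) and ANPEP (6.91 and 6.55), bright in both groups. RBP2, FABP2, CDX2 and CDH17 had group 1 means of 1.92, 0.86, -0.73 and -3.28, and were not well above background on either group 2 array. These probes were kept through group 1 alone, as was that of MEP1A, which was not well above background on group 2 replicate 1. Their calls, and the median they enter, rest on probes kept by the group in which they are bright. Of 6 erythroid markers 3 were higher, with sums of 96.9 to 112.6 in group 1 and of 7.95 and 33.0 on group 2 replicates 1 and 2. The called RHAG probe was also kept through group 1 alone. Of 6 endothelial and stellate markers 3 were higher, the collagen genes COL1A2, COL3A1 and COL5A1 (sums over the list of 20.2 to 22.4 against 5.40 to 6.55). The endothelial markers CDH5 (0.53, adjusted p = 0.316) and KDR (0.26, 0.458) were not called, nor was ACTA2 (1.01, 0.0672). Of 8 T and B lymphocyte markers 1 was called higher (CD74, which made up most of the summed signal). All 8 had group 1 arrays wholly above those of group 2, beside 40.3% of all named genes. Their median difference was 0.97, with sums of 194.2 to 215.0 against 75.4 to 95.9. CD4, 1 of the 8, was not well above background on either group 2 array and was kept through group 1 alone. Of 6 macrophage and heterophil markers 1 was higher (PTPRC) and 1 lower (LYG2), with sums of 84.6 to 90.6 against 91.4 to 138.2. Their part in the differences of SCD, FASN and ELOVL5 was not tested.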

How the data were processed

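Per the file headers, the authors' scanner files come from Agilent Feature Extraction 11.5.1.1 and hold the intensity of each spot on a linear scale, with background removed in the signal used here. Values in the authors' deposited table are on a log2 scale. In a comparison they closely followed the scaled log2 scanner signal after centring each probe over the 4 arrays (r rounds to 1 for each array). The largest difference at any probe was 0.32 to 0.55 by array. Column medians were 0.084, 0.016, -0.094 and -0.022.

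From the processed intensity of 43803 spots that are not controls, log2 was taken and each array's 75th percentile (978, 1450, 1170 and 1278 intensity units) subtracted. Outlier spots (8 to 25 per array) were set to missing, no spot was saturated, and spots of a probe were averaged. A probe was kept (33869, of which 33868 could be tested) where both arrays of group 1 or both of group 2 read it well above background. Signals well above background made up 72.3% to 80.2% of probes. With arrays there is no count depth, and precision is limited by having 4 of them. Probes were named by unversioned accession through a RefSeq gene table of GRCg7b (11935 probes), while the array was drawn on galGal3, so no coordinates are given. A gene stands as its brightest kept probe.

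Groups were compared as group 1 minus group 2 by limma's moderated test (lmFit, then eBayes, limma 3.58.1, R 4.3.3), with degrees of freedom of 2 (residual) plus 2.60 (prior) and Benjamini-Hochberg adjustment over all tested probes and a threshold of 0.05. The procedure was tested on simulated data. Alternatives were quantile normalization, median scaling, normexp (offset 50, on median spot and background signals, since the files used hold no mean signal) with quantile normalization, no filter, the authors' table, outlier spots kept, the replicate block, the mean of a gene's probes, and each array left out. The deviations of same-numbered arrays from their group means correlated at r = 0.033, so the numbers were not taken to pair the arrays. The 10 genes and the lists were chosen with earlier results of these data known. Named beside the 10 genes were listed genes past the test (0 by their brightest probes), 10 other listed genes chosen after their values were seen, and the 3 genes nearest in pattern to the member with the largest difference. Sequences of promoters and proteins were not analysed here.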

Additional observations from a re-analysis of the deposited data

How the results depend on the processing

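Of the 25 probes, 25 kept their side of the threshold and their direction with the authors' table, which closely follows the same signal, and 25 with outlier spots kept. The values for SCD, FASN, SREBF1, ELOVL5, ACACA and ACLY stayed negative for the brightest probe under all alternatives run. Those for MID1IP1, ELOVL2 and PGD stayed positive. The mean of a gene's probes, which does not use the brightest probe alone, was of the opposite sign for ACACA (0.18), ACLY (0.23) and PGD (-0.29). The dimmest ACACA probe turned from 0.19 to -0.049 with quantile normalization, -0.021 with median scaling and -0.015 with normexp and quantile normalization, and the dimmer SREBF1 probe from 0.39 to -0.091 and -0.061 with the first and the last of these. With 1 array left out, these probes changed sign: THRSP (-0.66 to 2.39 on the brightest probe and -1.04 to 2.62 on the other), that ACACA probe (-0.28 to 0.66), a dim ACLY probe (-0.048 to 1.42) and a PGD probe (-0.56 to 0.12). The cause was not tested.

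The count of lower genes among the 10 was 1 (SCD) and became 2 with median scaling, 3 with normexp and quantile normalization, and 0 without the filter. With the mean of a gene's probes it stayed 1, but that gene was FASN. With 1 array left out it ranged from 0 to 2, and that of higher genes from 0 to 2, the 2 being THRSP and ELOVL2 without group 2 replicate 1. Among the 30 other listed genes, higher calls were 0 and became 1 with normexp and quantile normalization (MTHFD1) and 2 with the mean of probes (MTHFD1 and PRKAA2). These 2 genes have 1 kept probe each, so their differences (0.77 and 2.56) were the same as by the brightest probe. Only the adjusted p moved, from 0.0747 to 0.0482 for MTHFD1 and from 0.0554 to 0.0472 for PRKAA2. The PRKAA2 probe was kept through group 1 alone, the group in which it is bright, so its call is no support for a difference. Lower calls were 0 and became 1 with median scaling (PRKAA1), 2 with normexp and quantile normalization (PRKAA1 and LPIN2) and 1 with the mean of probes (LPIN2). With 1 array left out each ranged from 0 to 2.

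Over all named genes 280 were higher and 191 lower. Without the filter there were 102 and 54, and with the mean of probes 446 and 309. Lower genes numbered 302 with median scaling, 345 with normexp and quantile normalization, and 111 with the replicate block. With 1 array left out higher genes ranged from 0 to 721 and lower from 0 to 429, 0 without either group 1 array, where 336 and 434 were higher and 224 and 281 lower at an unadjusted p under 0.05. With an array left out, the residual spread comes from the complete pair of the other group alone, and the lone array is assumed to vary like it. The group 1 pair lay closer together, so calls without a group 2 array leave out the wider spread of group 2 and are no support for a call. The share of calls that were higher was 59.4%, and 40.2% with median scaling. With the replicate block SCD kept its call on the brightest probe (adjusted p = 0.0318), while the called FASN and ELOVL5 probes lost theirs.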
